A study of Mus musculus with 24 samples.

Results

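The 9 genes Esm1, Egfl7, Edn1, Flt1, Ptprb, Ramp3, Plvap, Nostrin and Lmo2 are best known from the endothelium, the lining of blood vessels, and were followed here in cultures of primary vascular smooth muscle cells. They were taken by gene symbol from the array's annotation, which names 16593 genes. The 9 genes had been chosen by their levels on the arrays of knockout cells given vector A, vector B or PMCA4b. All but Ramp3 differ between these groups, and Ramp3 was undetected in each of them. Because of this choice, differences of the 9 genes between these groups are described without a test. Only knockout against wild type, which the rule of choice does not name, was tested. The choice was made with earlier results of these data known, so it may not be independent of the wild-type arrays, above all for Ramp3. The 9 genes had 14 probes, of which 11 passed the detection filter (a detection p under 0.01 on at least 4 of 24 arrays), and each gene kept at least 1 probe, as did 7675 genes of the whole array.

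The cells came from the carotid artery of male C57bl6 mice, and were either PMCA4 wild type (5 arrays) or PMCA4 knockout. Knockout cells were measured without added DNA (5 arrays), or after electroporation with DNA for PMCA4b (5 arrays), with vector A (5 arrays) or with vector B (4 arrays). All groups were synchronized, then given serum and the growth factor PDGF-BB, and collected in late G1/S. PMCA4, encoded by Atp2b4, is a calcium pump of the plasma membrane and PMCA4b is a splice form of it. The sources used here do not say how the 2 vectors differ, how old the mice were, or whether the arrays of a group came from separate cultures or animals. The p-values therefore measure only how far these samples spread, part or all of which may be technical.

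Endothelial cells form the inner surface of arteries, against which smooth muscle cells lie. Vascular endothelial growth factors (VEGF) act on them through the receptors Flt1, Kdr and Flt4, angiopoietins act through Tek, and the endothelial cells in turn release endothelin, which makes smooth muscle contract. Some of these genes are also used by other cells of the vessel wall, and single genes of the set are therefore no proof of a cell type.

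Promoter sequences were at hand for 6 of the 9 genes, from RefSeq (build GRCm38.p6), each covering 250 bases before and 50 after a gene start. The promoters of Esm1, Flt1 and Edn1 are shown because, among the 9 genes, Esm1 and Flt1 differed most between knockout and wild type and Edn1 alone was undetected with PMCA4b and detected on all other arrays. The Esm1 window lies at chr13:113209409-113209708 (+), that of Flt1 at chr5:147725962-147726261 (-) and that of Edn1 at chr13:42301226-42301525 (+), each printed 5′ to 3′ along the gene's strand. Capitals mark matches, on either strand, to the cyclic AMP response element TGACGTCA (CRE), to the AP-1 motif TGANTCA, to AGATAA, which GATA factors bind, or to GGAAG, which ETS factors bind.
Esm1 promoter: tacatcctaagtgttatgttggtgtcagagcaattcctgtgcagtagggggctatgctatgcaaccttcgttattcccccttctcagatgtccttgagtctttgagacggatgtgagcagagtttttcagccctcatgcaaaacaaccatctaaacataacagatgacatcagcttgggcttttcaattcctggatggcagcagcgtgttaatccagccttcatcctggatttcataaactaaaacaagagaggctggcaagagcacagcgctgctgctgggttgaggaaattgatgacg
Flt1 promoter: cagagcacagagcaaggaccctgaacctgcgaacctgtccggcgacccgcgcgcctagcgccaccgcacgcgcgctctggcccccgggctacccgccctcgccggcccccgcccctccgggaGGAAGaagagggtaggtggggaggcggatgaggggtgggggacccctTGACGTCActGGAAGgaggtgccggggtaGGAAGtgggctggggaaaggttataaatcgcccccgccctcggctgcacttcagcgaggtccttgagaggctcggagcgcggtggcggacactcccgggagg
Edn1 promoter: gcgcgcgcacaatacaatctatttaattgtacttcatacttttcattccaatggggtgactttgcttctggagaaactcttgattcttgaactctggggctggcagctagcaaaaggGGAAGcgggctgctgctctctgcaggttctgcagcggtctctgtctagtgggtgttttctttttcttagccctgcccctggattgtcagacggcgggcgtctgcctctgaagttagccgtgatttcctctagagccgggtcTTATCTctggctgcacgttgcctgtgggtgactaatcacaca

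The Flt1 window held 1 CRE match, starting 81 bases before the gene start, and 3 ETS matches, starting 128, 71 and 52 bases before it. The Edn1 window held 1 GATA match on its opposite strand, just after the gene start, and 1 ETS match. No match to any of the 4 motifs was found in the Esm1 window, and no matches in the printed windows overlapped. Among 32851 promoter windows of the same length, a CRE match was found in 1.8%, an AP-1 match in 7.8%, a GATA match in 11.2% and an ETS match in 71.4%. A match is a description of letters, not a binding site.

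Egfl7 also hosts miR-126, a microRNA of endothelial cells, at chr2:26591402-26591423 (+, GRCm38.p6). Its mature 3p form is printed with the seed (bases 2 to 8) in capitals, because a change in the host gene need not be a change in the microRNA, which was not measured here.
mmu-miR-126a-3p: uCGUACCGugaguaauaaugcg

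Levels are log2 values of background-corrected, quantile-normalized bead intensity, on which the lowest detected value of an array lay between 6.16 and 6.57. Each array detected between 37.0% and 40.5% of its 25697 probes, and precision is limited by how many arrays a group has. The deposited columns lie in 3 neighbouring sets of 8. All 5 vector A arrays lie in the third set, with 1 array each of wild type, knockout and PMCA4b, and all 4 vector B arrays lie in the first 2 sets, with 2 arrays each of the same 3 groups per set. No header or label says that a set is a chip or a batch. The only Atp2b4 probe above background read 6.81 in wild-type and 6.84 in knockout cells, 6.73 with PMCA4b (4 of 5 arrays detected), 6.68 with vector A and 6.72 with vector B. Its mean in the group labelled as given PMCA4b was below that of knockout, within the spread of the arrays, and the sources used here do not place it relative to the deleted part or to the added DNA, so it checks neither label. Acta2, the actin of smooth muscle, was detected on all arrays (group means 13.88 to 15.96), Tagln, a second contractile marker, was undetected with both vectors, and Myh11, Cnn1 and Des, markers of mature smooth muscle, were detected on 0 of 24 arrays.

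The 9 genes did not share a single pattern over the groups. On all arrays of a group, 6 were detected in wild type, 4 in knockout, 5 with PMCA4b, 6 with vector A and 7 with vector B. Esm1 and Flt1 were detected on every array, Ramp3 in wild type only, and Nostrin with vector A only. In bulk RNA, a change in the number of cells that express a gene and a change in RNA per cell cannot be told apart, and this holds for every value below.

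**Figure D1:**
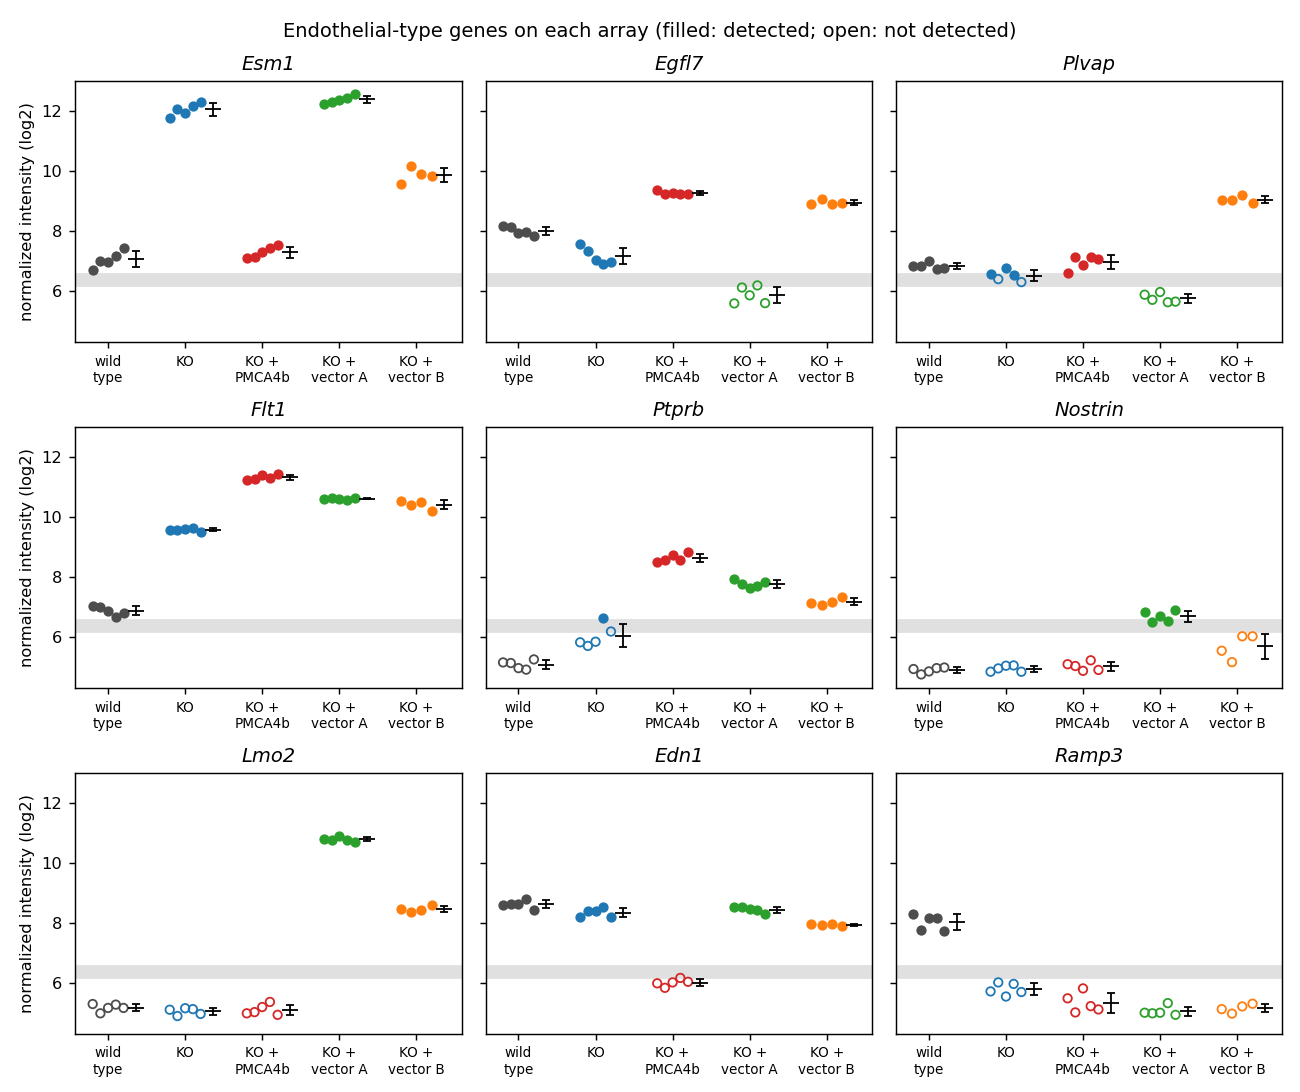
Normalized intensity (log2) of the 9 genes on each of 24 arrays, by group, with filled points for detected and open points for undetected arrays, black marks for the group mean ± SD, and a grey band for the range of the lowest detected values, 6.16 to 6.57. Lmo2 lies below the band in wild-type, knockout and PMCA4b cells and above it with both vectors, and Edn1 lies below it with PMCA4b alone.

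Esm1 encodes endocan, a proteoglycan that activated endothelial cells secrete and that binds growth factors. The 5 wild-type arrays read 6.70, 7.01, 6.97, 7.17 and 7.43 for Esm1, and the 5 knockout arrays 11.78, 12.08, 11.94, 12.16 and 12.31. With PMCA4b it read 7.09, 7.14, 7.30, 7.43 and 7.52, with vector A 12.25, 12.31, 12.38, 12.42 and 12.58, and with vector B 9.58, 10.16, 9.89 and 9.83. Thus PMCA4b cells lay at the wild-type level and overlapped it, vector A cells lay at the knockout level and overlapped it, and vector B cells fell between, apart from both. The vector A mean was 34.1-fold above the PMCA4b mean and 5.74-fold above the vector B mean, and the vector B mean was 5.95-fold above that of PMCA4b. Untreated knockout cells were 27.1-fold above PMCA4b cells.

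Egfl7 encodes a secreted protein that endothelial cells deposit in the matrix as vessels form. Its detected probe, designed to transcript NM_198725, read 8.16, 8.12, 7.92, 7.97 and 7.82 in wild type and 7.56, 7.35, 7.03, 6.92 and 6.98 in knockout. With PMCA4b it read 9.36, 9.24, 9.26, 9.25 and 9.24, and with vector B 8.91, 9.07, 8.90 and 8.93. The 5 vector A arrays, at 5.59, 6.12, 5.86, 6.19 and 5.60, were all undetected, so that vector A alone lacked a measurable level. No 2 neighbouring groups in the order PMCA4b, vector B, wild type, knockout and vector A overlapped. Vector B cells were at least 6.06-fold and PMCA4b cells at least 7.54-fold above vector A cells, where "at least" sets an undetected array at its own value or at the array's lowest detected value, whichever is higher. PMCA4b cells were 1.24-fold above vector B cells. Another probe of Egfl7, for a different transcript, was detected on 2 of 4 vector B arrays and nowhere else, and the third on 0 of 24 arrays.

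Edn1 encodes endothelin-1, the vasoconstrictor peptide that endothelial cells release onto smooth muscle. It read 8.60, 8.63, 8.62, 8.79 and 8.42 in wild type and 8.20, 8.38, 8.39, 8.52 and 8.20 in knockout, overlapping ranges. With vector A it read 8.51, 8.53, 8.45, 8.42 and 8.28, and with vector B 7.96, 7.92, 7.97 and 7.89. The PMCA4b arrays, at 5.98, 5.83, 6.01, 6.16 and 6.03, were all undetected. PMCA4b cells thus stood apart from the other 4 groups, at least 3.61-fold below knockout, 3.87-fold below vector A and 2.73-fold below vector B. The vector A mean was 1.42-fold above the vector B mean and overlapped the knockout arrays.

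Flt1 encodes VEGF receptor 1, which binds VEGF tightly and in a soluble form takes it away from Kdr. It read 7.02, 7.01, 6.88, 6.67 and 6.80 in wild type and 9.56, 9.55, 9.59, 9.64 and 9.51 in knockout. With PMCA4b it read 11.22, 11.26, 11.39, 11.28 and 11.42, with vector A 10.61, 10.62, 10.59, 10.57 and 10.63, and with vector B 10.52, 10.41, 10.50 and 10.20. Wild type was the lowest group and PMCA4b the highest, and no groups overlapped, although vector A and vector B were separated by less than the spread of the vector B arrays. PMCA4b cells were 1.63-fold above vector A, 1.87-fold above vector B and 3.35-fold above knockout, and vector A cells were 2.05-fold above knockout. A second Flt1 probe was detected on 0 of 24 arrays, so the measured level rests on 1 probe, and which transcript forms it reads was not examined.

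Ptprb encodes the receptor phosphatase VE-PTP, which in endothelium restrains Tek and holds cell junctions together. All 5 wild-type arrays were undetected, at 5.15, 5.13, 4.96, 4.91 and 5.25, and in knockout only the array at 6.64 was detected, beside 5.82, 5.70, 5.84 and 6.18. PMCA4b arrays read 8.50, 8.56, 8.72, 8.56 and 8.82, vector A arrays 7.94, 7.75, 7.62, 7.69 and 7.84, and vector B arrays 7.14, 7.05, 7.17 and 7.32. The 3 electroporated groups were detected throughout and did not overlap each other, with PMCA4b highest. PMCA4b cells were 1.83-fold above vector A, 2.76-fold above vector B and at least 4.51-fold above knockout, and vector A cells were 1.51-fold above vector B. The order of Flt1 and Ptprb over the 5 groups was therefore the same.

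Ramp3 encodes a small membrane protein that turns the receptor Calcrl into a receptor for adrenomedullin, a vasodilator peptide. Its brightest probe read 8.30, 7.74, 8.17, 8.15 and 7.71 in wild type, all detected, and 5.71, 6.01, 5.54, 5.96 and 5.69 in knockout, none detected. With PMCA4b, vector A and vector B the values ran from 4.93 to 5.81, and again no array was detected. Its other 2 kept probes were likewise detected on all wild-type arrays and on no other array. Wild type was thus the only group with measurable Ramp3, and neither PMCA4b nor a vector brought the gene above background.

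Plvap encodes the protein of the diaphragms that span openings and caveolae of endothelium. It read 6.84, 6.85, 7.00, 6.75 and 6.76 in wild type and 6.56, 6.40, 6.78, 6.54 and 6.30 in knockout, where 3 of 5 arrays were detected. PMCA4b arrays read 6.59, 7.12, 6.88, 7.13 and 7.07, vector B arrays 9.02, 9.04, 9.19 and 8.92, and the undetected vector A arrays 5.88, 5.71, 5.97, 5.63 and 5.65. Vector B stood above the other 4 groups without overlap, vector A stood below them, and the remaining 3 lay near the detection limit and overlapped in part. Vector B cells were at least 6.45-fold above vector A, 4.24-fold above PMCA4b and at least 5.67-fold above knockout.

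Nostrin encodes an adaptor that carries endothelial nitric oxide synthase away from the plasma membrane. It was detected on the 5 vector A arrays alone, at 6.84, 6.50, 6.69, 6.53 and 6.91, near the limit. The vector B arrays read 5.54, 5.16, 6.02 and 6.02, and the arrays of the other 3 groups lay between 4.75 and 5.22. Vector A cells were at least 1.32-fold above vector B, at least 1.15-fold above PMCA4b and at least 1.21-fold above knockout. These bounds are small because the vector A level itself was only just measurable. Their order reflects the lowest detected values of the compared arrays, not the levels of Nostrin. The vector A mean lay 1.01 above vector B, 1.67 above PMCA4b and 1.75 above knockout on the log2 scale, with those 3 groups undetected.

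Lmo2 encodes a nuclear bridging protein that joins GATA and basic helix-loop-helix factors, and it is needed for blood and vessel development. It read 10.80, 10.77, 10.88, 10.76 and 10.70 with vector A and 8.47, 8.37, 8.41 and 8.60 with vector B. All 15 arrays of wild-type, knockout and PMCA4b cells were undetected, between 4.89 and 5.36. Lmo2 therefore marked both vector groups and, among them, vector A more than vector B. Vector A cells were 4.98-fold above vector B, at least 19.6-fold above PMCA4b and at least 20.6-fold above untreated knockout cells. Vector B cells were at least 3.94-fold above PMCA4b and at least 4.13-fold above knockout.

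Knockout against wild type asks which of these genes differ when PMCA4 is missing and nothing was electroporated. Of the 9 genes, 3 rose in knockout cells (Esm1, Flt1 and Ptprb), 4 fell (Ramp3, Egfl7, Plvap and Edn1, of which Ramp3 passed the detection filter through the wild-type arrays alone), and Nostrin and Lmo2 were undetected on both sides (limma adjusted p = 0.745 and 0.15). Among all 7675 genes, 57.7% were called at an adjusted p under 0.05 (26.6% higher and 31.1% lower), so a large share of called genes is not particular to this set. The median difference of the 9 genes was -0.13 on the log2 scale, beside -0.04 over all genes. The arrays of the 2 groups did not overlap for 5 of the 9, beside 39.6% of all genes.

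Markers of other cell types differed in the same comparison. Of 7 fibroblast markers on the array 5 passed the filter, and 4 of them rose, among them the surface glycoprotein Thy1 (41.8-fold, limma adjusted p = 9.82e-27) and the collagen gene Col1a1 (2.36-fold, limma adjusted p = 2.85e-13), while Pdgfra, a growth factor receptor, fell 1.38-fold (limma adjusted p = 6.61e-06). Dcn, which codes for a matrix proteoglycan, rose at least 10.5-fold from no detected wild-type array (limma adjusted p = 1.69e-23). The summed linear level of the 5 ran from 4648 to 5592 in wild type and from 35382 to 39130 in knockout, where most of it came from Thy1. Of 13 smooth muscle and mural markers 6 passed, and 4 of them rose: Acta2 by 2.64-fold, Tagln by 3.04-fold, Cspg4 by 3.44-fold and Pdgfrb by 1.23-fold, the last with overlapping arrays. The summed level of these 6, most of it from Acta2 in both groups, ran from 24839 to 28943 in wild type and from 66658 to 70541 in knockout. Of 6 leukocyte markers on the array, Ptprc, Adgre1 and Itgam were detected on 0 of 24 arrays. Cd14 was detected on all arrays and fell 2.40-fold in knockout (limma adjusted p = 3.68e-14). Aif1 was detected on 1 vector B array and Cd3e on 1 knockout array. The summed fibroblast level ran from 11164 to 12881 with PMCA4b, 14017 to 14973 with vector A and 15886 to 17178 with vector B. The summed smooth muscle and mural level ran from 33593 to 39822, 16637 to 17607 and 16483 to 17251 in the same order. The part of these marker differences in the values of the 9 genes was not tested.

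The sizes differed widely. Esm1 differed by 5.00 (SE 0.12) on the log2 scale, a 32.0-fold rise (limma adjusted p = 2.94e-20), and Flt1 by 2.69 (SE 0.06), a 6.46-fold rise (limma adjusted p = 1.51e-20). Ramp3 differed by -2.23 (SE 0.14), at least 3.03-fold, and its other 2 kept probes were at least 1.49-fold and 1.86-fold lower. Since the filter had kept Ramp3 through the group where it is high, its p is given from the fit with no filter, over 16593 genes (limma adjusted p = 2.59e-12). Ramp3 may owe its place in the set to the wild-type arrays, so this p is not an independent test. Egfl7 fell by 0.83 (SE 0.12), or 1.78-fold (limma adjusted p = 1.89e-06).

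The remaining 3 called genes rest on small or barely measured differences. Ptprb differed by 0.96 (SE 0.12, limma adjusted p = 6.07e-07), but with 1 of 10 arrays detected no fold is given, and over the processing alternatives its difference ran from 0.56 to 1.85. Plvap was at least 1.23-fold lower in knockout (log2 -0.32, SE 0.10, limma adjusted p = 0.00752) and Edn1 was 1.21-fold lower (log2 -0.27, SE 0.07, limma adjusted p = 0.00217), both with overlapping arrays. Within the first and the second column set, with 2 arrays per group, Edn1 had limma adjusted p = 0.0687 and 0.132, so its call was lost in both. Plvap had limma adjusted p = 0.0453 in the first set and 0.276 in the second, where its call was lost. Within these sets Esm1, Flt1, Egfl7 and Ptprb kept their direction and their call, with limma adjusted p of at most 0.0156. For Ptprb, however, no array of the first set and only 1 of the second was detected, so its calls there rest on values near or below background.

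**Figure D2:**
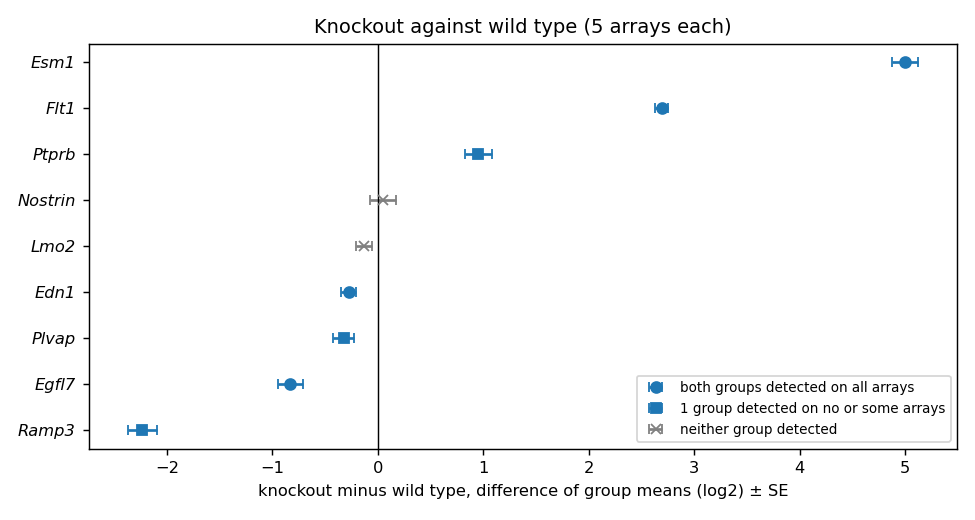
Difference of group means, knockout minus wild type (log2, horizontal axis, 5 arrays each), with its SE from the limma fit, for each of the 9 genes. Esm1 at 5.00 and Flt1 at 2.69 lie far to the right, Ramp3 at -2.23 lies far to the left, and the grey marks of Nostrin and Lmo2 are genes detected in neither group.

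Knockout cells with vector A and with vector B carry the same genotype. The set had been chosen by its levels in these groups and with PMCA4b. Vector B and vector A arrays did not overlap for 8 of the 9 genes, all but Ramp3, beside 46.6% of all genes. Higher with vector A were Lmo2, Esm1, Nostrin, Ptprb, Edn1 and Flt1, and higher with vector B were Egfl7 and Plvap. PMCA4b against vector A likewise left 8 genes without overlap (67.3% of all genes), with Egfl7, Plvap, Flt1 and Ptprb higher with PMCA4b and Esm1, Lmo2, Edn1 and Nostrin lower. PMCA4b against vector B left 7 without overlap (61.7% of all genes). For Plvap the 2 vectors lay on opposite sides of PMCA4b, so the sign of a PMCA4b against vector difference depended on which vector was used.

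Against untreated knockout cells, 7 genes did not overlap with vector A (61.8% of all genes), 9 with vector B (56.5%) and 5 with PMCA4b (52.5%). Flt1, Ptprb and Lmo2 were higher than in knockout with both vectors. Egfl7 and Plvap were higher with vector B, by 3.44-fold and at least 5.67-fold, and lower with vector A, by at least 1.76-fold and at least 1.12-fold. Ramp3 was undetected in all 4 knockout-derived groups, and Nostrin in knockout and vector B cells. Both are therefore counted among the 9 with vector B, and Ramp3 also among the 7 with vector A, on values below detection. These comparisons share the same knockout arrays.

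The third column set, which holds vector A, was set against the first 2 within wild type, knockout and PMCA4b, where each group has arrays in every set. The shift between sets was at most 0.47 on the log2 scale for Esm1 and at most 0.38 for the other 8 genes. Each shift rests on 1 array of the third set per group. Nostrin and Lmo2 were undetected in these 3 groups, so their shifts are background values and cannot show a set effect. The 2 vectors share no set, so the block below also draws on these 3 groups. The vector differences of Esm1, Egfl7, Plvap, Nostrin and Lmo2 were 1.01 or more in size. With the set as a block, vector B minus vector A was -2.17 for Esm1 in place of -2.52, 2.92 for Egfl7 in place of 3.08, 3.20 for Plvap in place of 3.27 and -2.42 for Lmo2 in place of -2.32. For Flt1, Ptprb and Edn1 the block gave -0.21, -0.38 and -0.63, beside set shifts of up to 0.13, 0.24 and 0.24. The sign of the undetected Ramp3 turned, from 0.10 to -0.15.

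**Figure D3:**
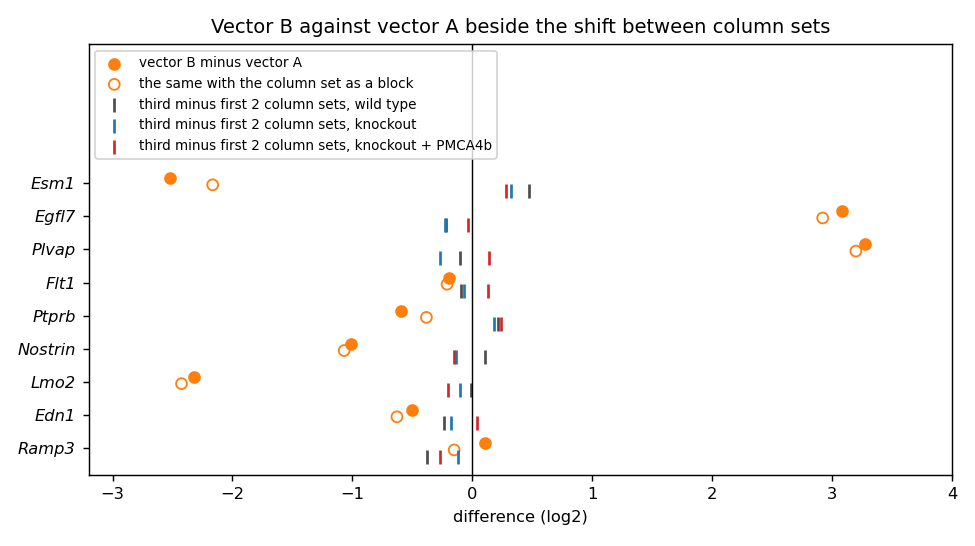
Vector B minus vector A (log2) for each of the 9 genes without (filled circles) and with (open circles) the column set as a block, and, as short bars, the third column set minus the first 2 within wild type, knockout and PMCA4b. The circles of Esm1, Egfl7, Plvap and Lmo2 lie far from 0 (the nearest at -2.17), and no bar lies beyond 0.47. The bars of Nostrin and Lmo2 are background values, undetected in all of these groups.

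Few other endothelial genes were measurable in these cultures. Of 26 further vascular endothelial markers on the array, 21 were detected on 0 of 24 arrays, among them the defining markers Pecam1, Cdh5, Kdr, Tek, Tie1, Vwf, Emcn and Erg. Eng, a co-receptor for TGF-beta that mural cells also carry, and the transcription factor Ets1 were detected on all arrays. Only 4 of the 26 passed the filter, and their summed linear level, most of it from Ets1 and Eng, ran from 2288 to 2567 in wild type, 1813 to 2000 in knockout, 2619 to 3281 with PMCA4b, 2007 to 2195 with vector A and 2079 to 2170 with vector B. The defining markers named above were undetected in every group, and whether a small number of endothelial cells added to any group was not tested.

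In knockout against wild type, Cd34 rose and Ets1 and Eng fell. Cd34, a surface glycoprotein of endothelial and progenitor cells, was detected on 3 of 5 wild-type arrays and rose at least 2.02-fold (limma adjusted p = 6.83e-07). Sox7, a transcription factor of endothelium, was detected on the 5 knockout arrays only, at 6.70 ± 0.21 (SD, n = 5), and since it passed the filter through that group alone its difference is given without a test. Ets1 fell 1.68-fold (limma adjusted p = 4.71e-11) and Eng 1.16-fold (limma adjusted p = 0.0244). Nos3, the endothelial nitric oxide synthase that Nostrin binds, was detected on 3 of 5 vector A arrays and on no other array, so both were measured in the same group only.

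**Figure D4:**
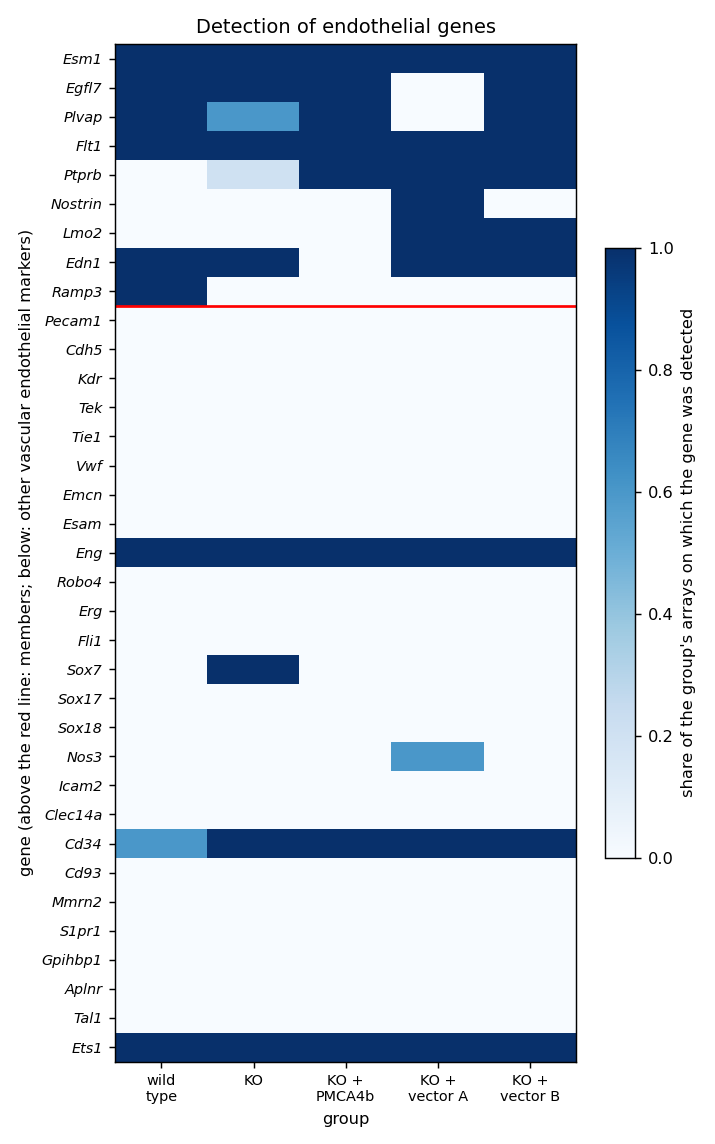
Share of each group's arrays on which a gene was detected, from 0 (white) to 1 (dark blue), for the 9 genes above the red line and 26 other vascular endothelial markers below it. The 9 genes fill most of the upper block, while below the line only Eng, Ets1, Cd34, Sox7 and Nos3 show any detection.

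Few markers of the lymphatic lining were measurable either. Prox1 and Flt4, which define that cell type, were detected on 0 of 24 arrays, as were 4 of the 6 lymphatic markers in all. Lyve1, a hyaluronan receptor, was undetected in wild-type, knockout and PMCA4b cells and read 8.97 ± 0.174 (SD, n = 5) in vector A cells and 7.87 ± 0.075 (SD, n = 4) in vector B cells, the groups in which Lmo2 was detected. Pdpn, a membrane glycoprotein also found on fibroblasts, read 10.12 ± 0.0459 (SD, n = 5) in knockout and 7.56 ± 0.118 (SD, n = 5) with vector A, and was undetected elsewhere.

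Genes of the VEGF family beside Flt1 were measured in part. Of 9 further VEGF ligands and receptors, 6 passed the filter, and in knockout against wild type 1 rose and 4 fell. Vegfa, the main ligand, fell 3.10-fold (limma adjusted p = 2.43e-13) and Vegfb fell 1.36-fold (limma adjusted p = 1.83e-05), while Vegfd rose 1.74-fold (limma adjusted p = 3.06e-10). Pgf was detected on 0 of 24 arrays. Vegfc, a ligand of Flt4, read 8.51 ± 0.116 (SD, n = 5) with PMCA4b, was undetected with vector A, and fell 1.57-fold in knockout against wild type (limma adjusted p = 2.94e-05). Kdr and Flt4 were undetected, so Flt1 was the only receptor tyrosine kinase for VEGF detected on these arrays.

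Of the angiopoietin genes beside Ptprb, Angpt2, a ligand of Tek, was the only one measured. It rose 3.13-fold in knockout (limma adjusted p = 2.68e-11), to 8.69 ± 0.0856 (SD, n = 5), and was undetected with PMCA4b, where Ptprb was highest. Tek, which Ptprb restrains in endothelium, and Tie1 were detected on 0 of 24 arrays.

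In the endothelin pathway, 2 of 5 further genes passed the filter, both of them converting enzymes. Ece1, which cuts the precursor to endothelin-1, rose 1.16-fold in knockout (limma adjusted p = 0.0215), and Ece2, a related enzyme, fell 1.23-fold (limma adjusted p = 0.000522). Ece1 read 7.48 ± 0.188 (SD, n = 5) with PMCA4b and 9.11 ± 0.116 (SD, n = 5) in knockout, and Ece2 read 9.68 ± 0.109 (SD, n = 5) and 8.32 ± 0.0457 (SD, n = 5). In PMCA4b cells, where Edn1 was undetected, Ece1 was thus below and Ece2 above its knockout level, by 3.09-fold (limma adjusted p = 9.3e-15) and 2.56-fold (limma adjusted p = 1.18e-14), in a comparison in which 69.3% of all genes were called. Ednrb, an endothelin receptor, was detected on 0 of 24 arrays.

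Around Ramp3, 5 of 9 further genes of the calcitonin receptor family passed the filter, and 2 of them, Adm and Ramp2, rose in knockout, the latter with only 1 of 5 knockout arrays detected. Adm, which encodes adrenomedullin, was undetected in wild type, where Ramp3 was measured, and detected in every other group, at least 6.77-fold higher in knockout (limma adjusted p = 1.21e-15). Calcrl, the receptor that Ramp3 modifies, was detected on 4 of 5 vector A arrays and 1 of 4 vector B arrays, and on no wild-type array. Adm, Calcrl and Ramp3 were therefore detected together in none of the 5 groups. Ramp2, in contrast, was detected on 5 of 5 vector A arrays (mean 6.65, near the limit), the group with Calcrl on 4 of 5 arrays and Adm on all 5.

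Of 8 partners of Lmo2, 4 passed the filter, all detected on every array, and in knockout against wild type 2 of them fell and the other 2 did not pass the test. Gata2 fell 1.90-fold (limma adjusted p = 2.17e-13) and Tcf4 fell 1.38-fold (limma adjusted p = 6.75e-08). Tal1 and Lyl1, the basic helix-loop-helix factors that Lmo2 joins in blood and vessel precursors, were detected on 0 of 24 arrays, also in the vector groups where Lmo2 was measured. Gata2 read 10.97 ± 0.0732 (SD, n = 5) in vector A cells and 10.89 ± 0.109 (SD, n = 4) in vector B cells, overlapping ranges.

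Around Plvap and Nostrin, 8 of 10 further genes of caveolae and endocytosis passed the filter and were detected on all arrays, and in knockout against wild type 6 rose and 0 fell, beside 26.6% and 31.1% of all genes. Cav1, the coat protein of caveolae, rose 1.86-fold and Ehd2, which holds them at the membrane, rose 1.56-fold. Cavin1 and Cav2 were among the 6 with small rises of 1.24-fold and 1.20-fold and overlapping arrays.

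**Figure D5:**
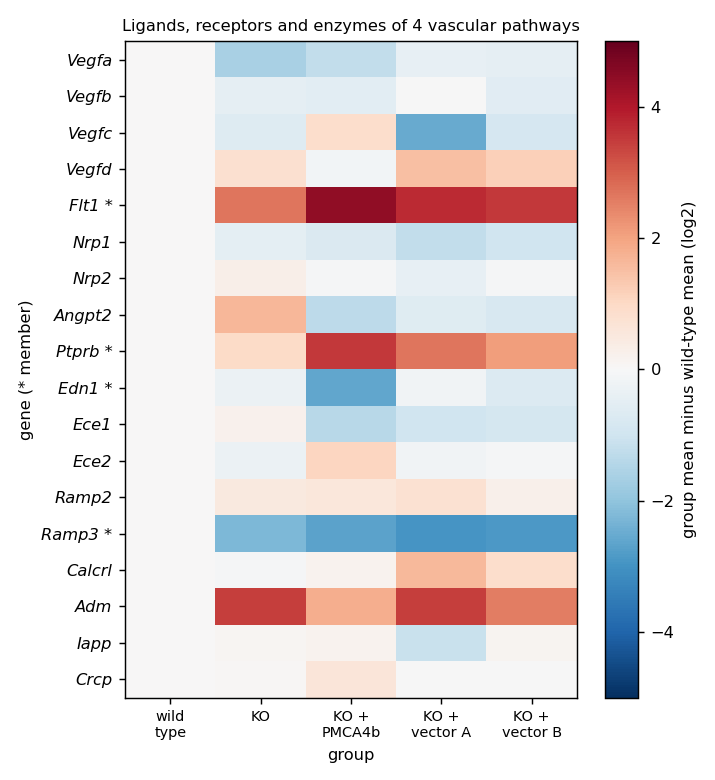
Group mean minus wild-type mean (log2, colour scale from blue, lower, to red, higher) for measured genes of the VEGF, angiopoietin, endothelin and calcitonin receptor pathways, with the genes of the set marked by an asterisk. Flt1 and Adm are red in all 4 knockout-derived groups, Ramp3 is blue in all 4, and Edn1 is strongly blue with PMCA4b alone.

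For each of the 9 genes, the 2 genes most like it were found by the root mean square difference of the 5 group means, each gene centred on its own mean, over 7563 genes. The closest was Rapsn to Nostrin (0.0453), then Napepld to Edn1 (0.120), Eno3 to Flt1 (0.183), Tbx3 to Ramp3 (0.197) and Gsto2 to Ptprb (0.199). Steap1 was closest to Egfl7 (0.400), Fzd1 to Plvap (0.477), Lyve1 to Lmo2 (0.598) and Lmcd1 to Esm1 (0.627). The next were Abca8b for Nostrin, H6pd for Edn1, Hoxa7 for Flt1, Tenm3 for Ramp3, Plac9a for Ptprb, Dbf4 for Egfl7, Gdf10 for Plvap, Igfbp5 for Lmo2 and Rasl11b for Esm1. None of the 9 genes was among the 2 nearest of another. The likeness rests on 5 group means of the same arrays and is a description.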

How the data were processed

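RNA was measured on 24 Illumina arrays, labelled as 5 groups. Per the file headers, the deposited values are a bead intensity and a detection p-value per probe and array; between 28.3% and 30.9% of the intensities on an array lie below 0, so background had been subtracted before deposit. A second deposited table holds the authors' log2 values, whose exact normalization the sources used here do not state, and it served as an alternative. The platform annotation gave a single gene symbol to 23978 probes.

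Intensities were normalized with neqc of limma 3.58.1 (R 4.3.3, data.table version 1.17.8; background from detection p-values, offset 16, quantile). Probes detected (p under 0.01) on 4 or more arrays were kept (11139), and the brightest kept probe stood for a gene (7675 genes). A linear model with 5 group means over 24 arrays (19 residual degrees of freedom) gave moderated two-sided tests, adjusted by Benjamini-Hochberg over all genes and called under 0.05. The fit was tested on simulated data. Figures used Python 3.11.15, pandas 2.3.3 and matplotlib 3.10.9.

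The 9 genes, the lists and the tests were chosen with earlier results of these data known. Named were the 9 genes, from each list at most 4 genes with the lowest adjusted p in a comparison, and the 2 genes most like each member; further list genes were named after their values were seen. Replicate numbers were not used to pair the samples in the main model. Deviations of same-numbered wild-type and knockout arrays correlated at 0.0125 to 0.420, not all above 0.1. Arrays with unlike numbers were not compared, so these values cannot decide whether the samples were paired. The highest value was that of replicate 5, beside at most 0.105 for the other replicates. For knockout and PMCA4b, replicate 5 gave 0.460 and the others at most 0.188. Replicate 5 of these groups lies in the third column set, with all vector A arrays. Alternatives covered background, offset, scaling, filter, probe choice, samples, blocks and leaving out each array; the column set block was chosen after seeing the data.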

Additional observations from a re-analysis of the deposited data

Results flagged for a closer look

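In 45 groups of 4 or 5 arrays (9 genes in 5 groups), 2 held an array that stood apart from the rest by the size of its gap to the nearest array, and chance gives about 1 in 20 such groups. Egfl7 with PMCA4b had 1 array at 9.36, and the next highest read 9.26, in a group whose SD was only 0.0509. Ramp3 with vector A had 1 array at 5.32, and the next highest read 5.00, all of them undetected.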

How the results depend on the processing

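In knockout against wild type, 7 of the 9 genes were called under every alternative except those within single column sets; within column sets 1 and 2, alternatives added after seeing the data with 2 arrays per group, 6 and 5 were called, and the genes called fell from 4428 to 2359 and 2361. With the replicate block 4526 genes and the same count of 7 members were called, and no member's call changed. Leaving out each array in turn gave 4230 to 4306 genes called. Of 225 tested member values under alternatives, 222 kept direction and call and 3 lost the call, Edn1 in both sets (adjusted p = 0.0687 and 0.132) and Plvap in the second (0.276); fewer arrays were fitted there. Of 1215 described differences, 84 moved by more than the spread between replicates and 3 changed sign, all between groups without a detected array. The block of a named chip was not run, because headers and labels name none.

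Low signal limits what can be said. Nostrin, Plvap in knockout and vector A cells, and Ptprb in wild-type and knockout cells had undetected arrays, so folds against them are bounds or not given, and an undetected array does not show that a gene is silent. Each gene except Ramp3 rests on 1 kept probe. Groups of 4 or 5 arrays of unknown origin limit the precision.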
